A study of Drosophila melanogaster with 36 samples.

Results

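The kinesin, dynein and adaptor genes that move cargo along axons were followed in fly heads, across 3 genotypes, before and 7 days after removal of the olfactory organs, and in whole-head RNA and ribosome pulldowns. The 9 genes were taken by name from the count tables, 9 of 17611 genes in all. They are the kinesin genes Khc, Klc, unc-104 and Klp64D, the dynein heavy chain gene Dhc64C, the dynactin gene DCTN1-p150, and the adaptor genes milt, Miro and syd. Each gene was found exactly once, and all 9 passed the filter on low counts in every fit.

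Axons are filled with microtubules whose fast-growing plus ends point away from the cell body. Kinesins walk towards plus ends and carry vesicles and organelles outwards, whereas cytoplasmic dynein, together with its cofactor complex dynactin, walks the other way and returns cargo to the cell body. Adaptors decide what is carried: Milton and Miro link mitochondria to motors, and Sunday driver, the product of syd, is a scaffold that joins motors to vesicles and to stress kinase signalling.

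The study asked which transcripts are held by ribosomes in severed olfactory axons that do not degenerate. There were 36 libraries, 3 in each of 12 groups, formed by genotype, injury and fraction. Background flies were w; orco-Gal4/+ and carried the driver alone. Wild type flies were orco-Gal4/+; 5xUAS-GFP::RpL10Ab/+, in which olfactory neurons that use the Orco co-receptor make a ribosomal protein fused to GFP. The dnmnatOE flies were orco-Gal4/5xUAS-dnmnat; 5xUAS-GFP::RpL10Ab/+ and also carried a transgene for the NAD+ synthesizing enzyme dNmnat. Every genotype thus carried the driver, and the transgenes were switched on in the Orco neurons, a small set of the cells in a head. Flies were uninjured or sampled 7 days post axotomy (7 dpa), after ablation of both antennae and maxillary palps. Ablation removes the cell bodies of these neurons and leaves their cut axons. The study's methods do not state the age of the uninjured flies used here, so any difference in age cannot be told apart from ablation. Inputs were poly-A selected RNA of whole heads, and pulldowns were RNA bound to anti-GFP beads, without poly-A selection. The background genotype has no tagged ribosome, so its pulldowns give what the beads hold without one. Animals were pooled, and the protocol in the labels calls the 3 libraries of a sample technical replicates, whereas the study's methods speak in general of biological replication, so that p-values measure the spread between libraries, which may be technical.

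Library content limits what can be read from pulldowns. Gene counts ran from 6628633 to 22329307 per input and from 644358 to 2057294 per pulldown, and read pairs that matched more than 1 gene were 1.92% to 3.21% of input and 48.5% to 60.3% of pulldown read pairs. Levels are given as CPM, counts scaled to a common library size after TMM normalization, set separately for inputs and pulldowns. Nmnat, the gene placed under UAS control, was not called higher in libraries labelled dnmnatOE: uninjured inputs held 26.3 ± 3.45 CPM against 23.7 ± 2.96 in wild type (SD, n = 3; log2 difference 0.15, adjusted p = 0.67), and uninjured pulldowns held 14.5 ± 6.74 against 28.5 ± 18.7 CPM (−0.99, adjusted p = 0.62). At 7 dpa the difference was −0.23 in inputs (adjusted p = 0.38) and 1.027 in pulldowns (adjusted p = 0.83), where no library held more than 23 counts. The overexpression is therefore not shown by these transcripts, and dnmnatOE below is the group as labelled. Orco itself, which marks the injury, dropped in inputs from 15.8 ± 0.495 to 2.20 ± 0.131 CPM in background, from 27.7 ± 3.33 to 1.96 ± 1.73 in wild type and from 28.2 ± 3.78 to 0.675 ± 0.459 in libraries labelled dnmnatOE. In pulldowns Orco was at 19.7 ± 23.1 CPM in uninjured wild type and 14.3 ± 3.93 in uninjured dnmnatOE against 2.52 ± 3.51 in uninjured background, and at no more than 6 counts in any pulldown of 7 dpa. The odorant receptor genes Or22a, Or42b, Or47b and Or67d had no count in any pulldown. Summed with Orco, Or43b, Or83c and Or92a, these markers held 17.7 to 58.9 CPM in uninjured wild type pulldowns. The sum was 14.3 to 29.2 CPM in uninjured dnmnatOE and 4.40 to 13.9 CPM in uninjured background. At 7 dpa it was 6.29 to 20.9 CPM in background, 2.03 to 13.3 in wild type and 4.88 to 15.3 in dnmnatOE.

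The positions are those of the Ensembl annotation of the Release 6 fly genome, the assembly behind the authors' annotation. Khc (FBgn0001308), the heavy chain and motor of kinesin-1, lies on the minus strand of 2R from 16266960 to 16271971, and its exons cover 3718 bases. Klc (FBgn0010235), the light chain that binds the cargo of kinesin-1, lies on the minus strand of 3L from 12746616 to 12750056 with 2065 exonic bases. The kinesin-3 gene unc-104 (FBgn0267002), whose motor carries synaptic vesicle precursors, lies on the minus strand of 2R from 16751503 to 16772671 with 8066 exonic bases. Klp64D (FBgn0004380), a motor subunit of kinesin-II, lies on the minus strand of 3L from 5356864 to 5359392 with 2529 exonic bases. Dhc64C (FBgn0261797), the motor chain of cytoplasmic dynein, lies on the minus strand of 3L from 4807368 to 4825687 and is the longest of the 9, with 14597 exonic bases. DCTN1-p150 (FBgn0001108), the dynactin subunit that binds both dynein and microtubules, lies on the plus strand of 3L from 13929387 to 13934656 with 4550 exonic bases. The adaptor gene milt (FBgn0262872) lies on the plus strand of 2L from 7037823 to 7056010 with 7667 exonic bases. Miro (FBgn0039140), which encodes a GTPase of the outer mitochondrial membrane, lies on the minus strand of 3R from 24034362 to 24038847 with 3791 exonic bases. The scaffold gene syd (FBgn0024187) lies on the minus strand of 3L from 7916650 to 7936120 with 5612 exonic bases. Exons shared with another gene matter for Miro, of which 633 bases (16.7%) overlap spas on the opposite strand, and for Klc, of which 155 bases (7.51%) overlap CG32109 on the opposite strand. In the other 7 genes at most 2.08% of exonic bases are shared. Whether reads were counted by strand is not given in the sources used here, so reads from these overlaps cannot be assigned with certainty.

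Per length (RPKM, CPM per kilobase of exons), unc-104 had the highest mean of the 9 transcripts in 5 of 6 input groups, and Dhc64C the lowest in all 6. In dnmnatOE inputs of 7 dpa, DCTN1-p150 (60.6 ± 2.24 RPKM) and Khc (50.7 ± 6.39) stood above unc-104 (34.1 ± 2.5). In uninjured wild type inputs the level was 63.6 ± 1.41 for unc-104, 32.5 ± 0.353 for Khc and 27.6 ± 1.52 for Klc (SD, n = 3). Below these kinesins came milt at 20.4 ± 1.38, Klp64D at 18.7 ± 1.68 and DCTN1-p150 at 17.4 ± 1.08 RPKM, neighbours that lie within about their spread of each other. The level of syd was 13.9 ± 0.483 and that of Miro 13.5 ± 1.01 RPKM, which do not differ beyond their spread, and Dhc64C stood last at 6.62 ± 0.762. Each input held at least 316 counts of every one of the 9 genes, whereas pulldowns held as few as 7 (Klc), so that pulldown values are less precise. The median coefficient of variation within a group of inputs was 3.96% for Khc and 11.2% for syd, the range over the 9 genes, and in pulldowns it was 9.19% for unc-104 and 34.3% for DCTN1-p150.

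The clearest change in heads was in DCTN1-p150, which rose after ablation in all 3 genotypes, least in background and most in dnmnatOE. Its inputs held 78.2, 73.2 and 82.1 CPM in uninjured background and 134, 113 and 107.5 CPM at 7 dpa. Wild type inputs held 78.0, 75.1 and 84.7 CPM uninjured and 198, 168 and 172 CPM at 7 dpa. Inputs labelled dnmnatOE held 65.1, 76.3 and 71.9 CPM uninjured and 275, 266 and 286 CPM at 7 dpa. All libraries of 7 dpa lay above all uninjured ones, and at 7 dpa the 3 genotypes did not overlap. The log2 fold change was 0.61 in background (SE 0.091, adjusted p = 3.06e-07), 1.18 in wild type (SE 0.089, adjusted p = 2.22e-16) and 1.96 in dnmnatOE (SE 0.091, adjusted p = 3.25e-25). Adjusted p-values come from edgeR (quasi-likelihood, Benjamini-Hochberg over all genes tested). A called gene has one of 0.05 or less and moves by more than 0.6 on the log2 scale. The rise in background sat at this limit: it was 0.56 without uninjured replicate 2 and 0.50 without 7 dpa replicate 1, and 0.48 with an offset that takes out each library's trend over exonic length, all below it.

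**Figure D1:**
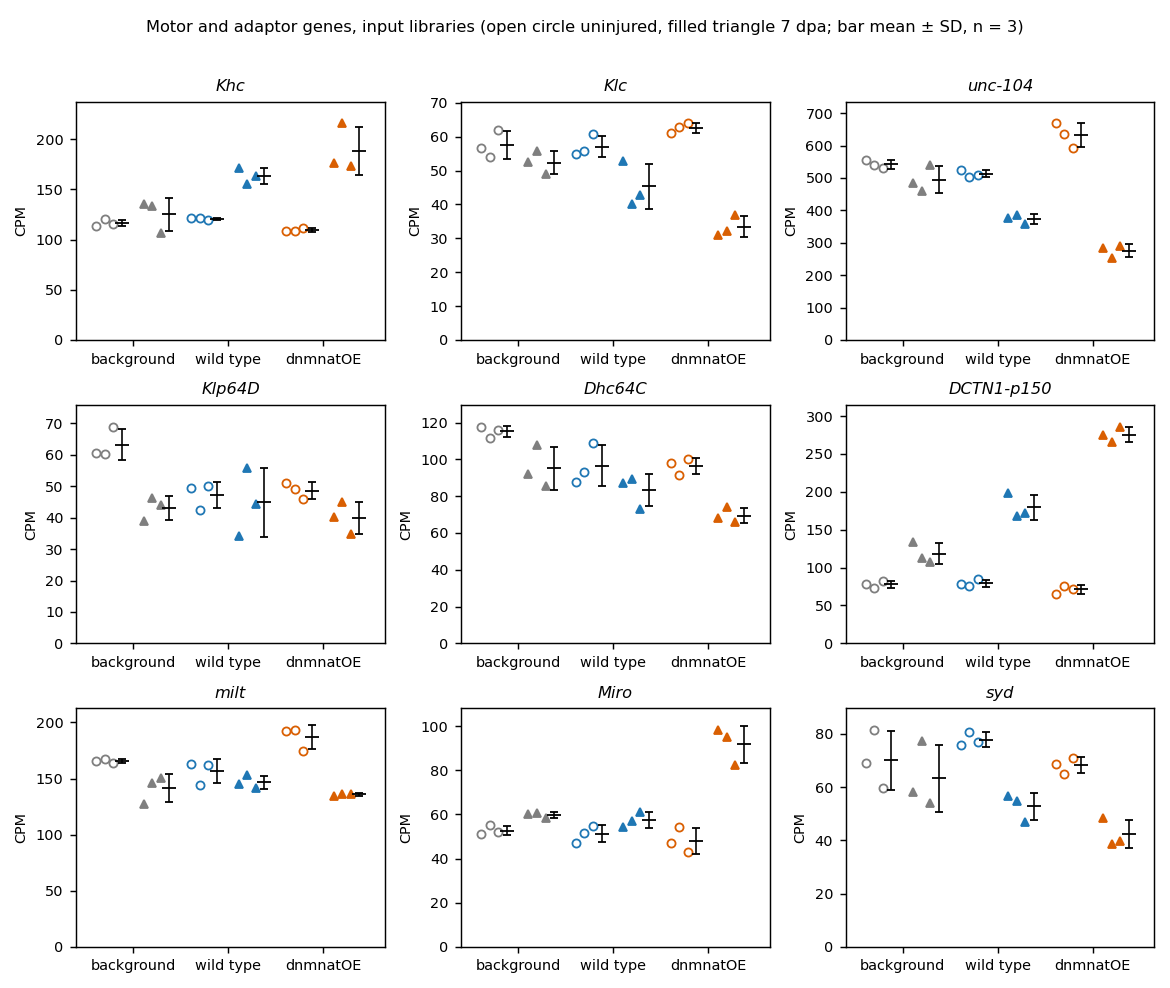
CPM of the 9 genes in each input library, by genotype on the x axis, with open circles for uninjured and filled triangles for 7 dpa; the bar beside each group is the mean ± SD of 3 libraries. DCTN1-p150 climbs from 71.1 to 275.5 CPM (means) in dnmnatOE, while unc-104 drops from 633 to 275 CPM.

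The kinesins went both ways in heads labelled dnmnatOE. There unc-104 fell: the inputs held 669, 637 and 594 CPM uninjured and 284, 252 and 290 CPM at 7 dpa, 2.30-fold lower and with a wide gap between the groups (log2 −1.20, SE 0.064, adjusted p = 1.15e-22). All 12 alternatives kept this call, the weakest at −0.91. In the same comparison genes with exons over 8 kb, as unc-104 has, had a median of −0.54, and 68.5% of them were called. In wild type unc-104 held 526, 504 and 510 CPM uninjured and 376, 387 and 358 CPM at 7 dpa, again without overlap. The difference of −0.46 (SE 0.063, adjusted p = 2.52e-08) did not pass the fold threshold. In background the groups of unc-104 overlapped, at 557, 539 and 530 against 484, 461 and 541 CPM (−0.13, adjusted p = 0.13).

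The chains of kinesin-1 moved in opposite directions in dnmnatOE inputs. Khc rose from 108.1, 108.7 and 111.5 CPM uninjured to 176, 216 and 174 CPM at 7 dpa (log2 0.78, SE 0.088, adjusted p = 4.93e-11). Klc fell from 61.1, 62.7 and 64.0 CPM to 30.98, 32.2 and 36.9 CPM (−0.91, SE 0.12, adjusted p = 6.04e-09). Neither pair of groups overlapped. In wild type the values had the same signs without being called, 0.44 for Khc (adjusted p = 4.19e-05) and −0.33 for Klc (adjusted p = 0.0204), and in background they were 0.10 and −0.13 (adjusted p = 0.46 and 0.48). The kinesin-II gene Klp64D was called in no genotype. Its largest difference was in background, with 60.5, 60.2 and 69.0 CPM uninjured and 38.8, 46.3 and 44.0 CPM at 7 dpa (−0.55, adjusted p = 0.0014). This difference was −0.61 and called without 7 dpa replicate 2, and −0.63 and called with the offset for exonic length.

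Among dynein and the adaptors of mitochondria and vesicles, Miro rose and syd fell in dnmnatOE inputs, while Dhc64C and milt were not called in any genotype. Miro held 47.2, 54.5 and 42.8 CPM in uninjured dnmnatOE inputs and 98.3, 95.1 and 82.4 CPM at 7 dpa, without overlap (log2 0.93, SE 0.11, adjusted p = 3.11e-10). In background and wild type the Miro differences were 0.18 (adjusted p = 0.28) and 0.17 (adjusted p = 0.23). The gene spas, which shares exonic bases with Miro, differed in dnmnatOE inputs by 0.57 (SE 0.18, adjusted p = 0.0045) and was not called. The milt transcript, whose protein binds Miro, differed by −0.46 in dnmnatOE (adjusted p = 1.43e-06), so that the partner genes had opposite signs. In dnmnatOE syd fell from 68.9, 65.1 and 71.0 to 48.5, 38.6 and 39.9 CPM (−0.69, SE 0.12, adjusted p = 3.95e-06), which was −0.56 and not called with the length offset. In wild type its difference was −0.56 (adjusted p = 0.000147). It was −0.62 and called without 7 dpa replicate 1, and again −0.62 and called with the length offset. Dhc64C had negative values in all genotypes, −0.28 in background, −0.21 in wild type and −0.47 in dnmnatOE.

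Counted together, 1 of 9 genes was called in background inputs, where 15.2% of all genes tested were called. In wild type inputs it was 1 of 9 against 28.5%, and in dnmnatOE inputs 6 of 9, 3 higher and 3 lower, against 50.7%. The share lay below that of all genes in background and wild type and above it in dnmnatOE, and with 9 genes each call moves it widely. The median log2 fold changes of the 9 genes were −0.14, −0.09 and −0.46, beside 0.01, −0.02 and −0.06 over all genes tested.

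**Figure D2:**
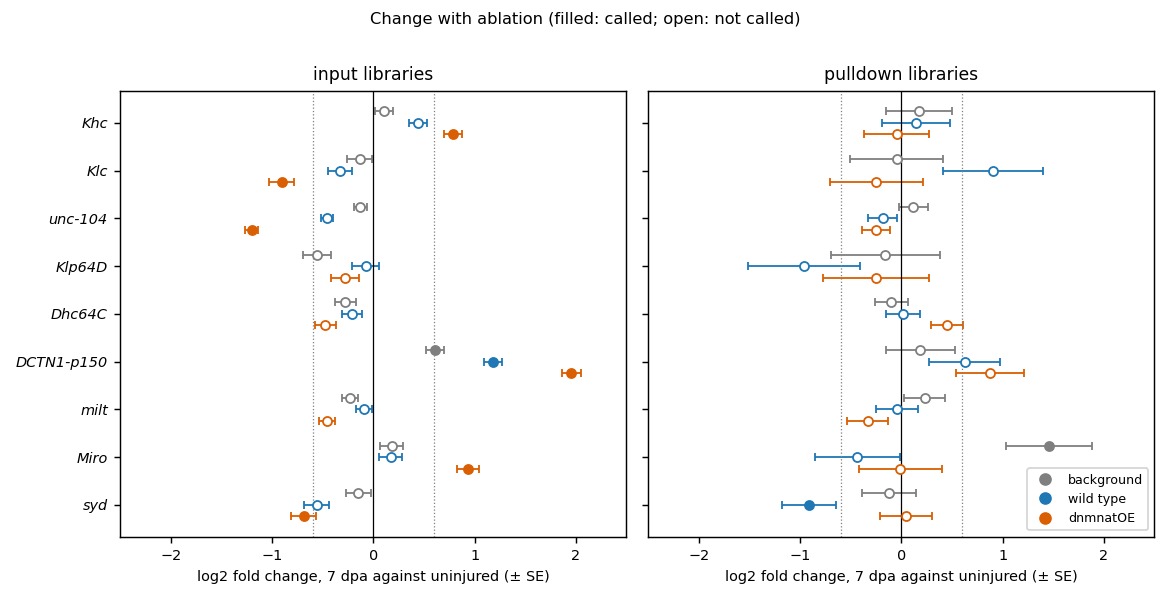
Log2 fold change of 7 dpa against uninjured libraries on the x axis (bars, ± SE) for the 9 genes, by genotype, in inputs (left) and pulldowns (right); filled points were called and dotted lines mark 0.6 in either direction. In inputs the spread of the 9 genes is widest in dnmnatOE, from −1.20 for unc-104 to 1.96 for DCTN1-p150.

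Marker genes of cell types moved in the same inputs, and in bulk heads fewer cells of a type and less RNA per cell cannot be told apart. The summed level of 6 neuron markers (elav, nSyb, Syt1, brp, para and Syx1A) was 1278 to 1294 CPM in uninjured background and 909 to 1070 at 7 dpa. It was 1051 to 1088 CPM in uninjured wild type and 670 to 724 at 7 dpa, and 1282 to 1308 against 411 to 419 in dnmnatOE. None of the 6 was called in background, 5 of 6 fell in wild type and 5 of 6 in dnmnatOE, with medians of −0.37, −0.78 and −1.66, and no neuron marker was at 0. The summed level of 6 fat body markers (Yp1, Yp2, Yp3, Lsp2, fit and to) was 59100 to 59570 CPM in uninjured background and 70857 to 82526 at 7 dpa, 64157 to 66875 against 136132 to 147168 in wild type and 58562 to 66028 against 241504 to 266769 in dnmnatOE, where 4 of 6 rose and 2 fell. In dnmnatOE all 5 muscle markers and 7 of 8 photoreceptor markers fell (medians −2.16 and −1.15), and 4 of 5 hemocyte markers rose in each genotype. The part of these shifts in the values of the motor genes was not tested.

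Before injury the input differences between genotypes stayed below the fold threshold in these genes. In uninjured inputs no gene of the 9 was called between dnmnatOE and wild type, where 7.54% of all genes were. None was called between wild type and background either, against 6.52%. With 9 genes, 0 called is near these shares. By edgeR 2 of 9 had an unadjusted p under 0.05 in each of these comparisons, and DESeq2 called 0 in each. The largest values were 0.30 for unc-104 in dnmnatOE against wild type (SE 0.063, adjusted p = 0.000219) and −0.42 for Klp64D in wild type against background (SE 0.13, adjusted p = 0.0254). In dnmnatOE against wild type milt differed by 0.25 (SE 0.078, adjusted p = 0.0168).

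At 7 dpa DCTN1-p150 and Miro were higher in dnmnatOE than in wild type inputs. The difference was 0.62 for DCTN1-p150 (SE 0.087, adjusted p = 1.21e-07) and 0.68 for Miro (SE 0.11, adjusted p = 3.08e-06), 2 of 9 called beside 13.3% of all genes. For DCTN1-p150 the value is close to the limit, being 0.57 without wild type replicate 2 and 0.59 without either wild type replicate 3 or dnmnatOE replicate 3. In wild type against background, 0 of 9 were called beside 14.6% of all genes, with 4 of 9 at an unadjusted p under 0.05 in edgeR and 0 called by DESeq2. DCTN1-p150 came nearest, at 0.60 (SE 0.090, adjusted p = 2.97e-07). It was called at 0.70 without background replicate 1, at 0.65 without wild type replicate 2 and at 0.63 without wild type replicate 3.

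Whether injury acted differently in the genotypes was tested as the change with injury in dnmnatOE minus that in wild type, a comparison that uses the libraries of those above. In inputs 3 of 9 genes were called, beside 22.1% of all genes: DCTN1-p150 at 0.78 (SE 0.12, adjusted p = 1.53e-06), Miro at 0.76 (SE 0.16, adjusted p = 0.000117) and unc-104 at −0.74 (SE 0.090, adjusted p = 1.68e-09). With the length offset, unc-104 was −0.44 and no longer called. Klc stood at −0.58 (SE 0.17, adjusted p = 0.00713). It was called without any of 4 libraries, at −0.62 without uninjured wild type replicate 3, −0.65 without wild type 7 dpa replicate 2, −0.61 without wild type 7 dpa replicate 3 and −0.65 without dnmnatOE 7 dpa replicate 3, and with the length offset it was −0.68 and called.

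Pulldowns and inputs had equal numbers of these genes called after ablation in background and wild type. In dnmnatOE fewer were called in pulldowns, which had fewer counts. After ablation 1 of 9 genes was called in background pulldowns beside 2.58% of all genes, 1 of 9 in wild type beside 6.22%, and 0 of 9 in dnmnatOE beside 11.9%, where 2 of 9 had an unadjusted p under 0.05 in edgeR and DESeq2 called 0. The DCTN1-p150 values, 0.19, 0.63 and 0.88 in background, wild type and dnmnatOE, were positive as in inputs, but none passed (adjusted p = 0.89, 0.32 and 0.082). In the dnmnatOE pulldowns DCTN1-p150 was at 74.6, 83.2 and 58.9 CPM uninjured and at 189, 105 and 103 CPM at 7 dpa. The groups do not overlap, but the first library of 7 dpa stands well above its 2 partners. For unc-104, which fell in dnmnatOE inputs, pulldowns held 638, 573 and 679 CPM uninjured and 517, 494 and 579 CPM at 7 dpa, with overlap (−0.25, SE 0.14, adjusted p = 0.32).

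The calls after ablation in pulldowns did not hold in every alternative. In background, which has no tagged ribosomes, Miro was at 44.9, 20.8 and 21.99 CPM uninjured and at 93.8, 70.5 and 80.7 CPM at 7 dpa, from 15 to 93 counts (log2 1.46, SE 0.43, adjusted p = 0.0449). The call was lost without uninjured replicate 2 (1.26) or 3 (1.30) and without 7 dpa replicate 1 (1.34), 2 (1.55) or 3 (1.47), and 3 of all 12 alternatives kept it. In wild type syd fell from 233, 264 and 211 CPM to 107, 131 and 137 CPM, without overlap (−0.92, SE 0.26, adjusted p = 0.0238). That call was lost without uninjured replicate 2 (−0.83) and without 7 dpa replicate 1 (−0.82), 2 (−0.95) or 3 (−0.96). Of all 12 alternatives, 8 kept it. The change of syd with injury in dnmnatOE minus that in wild type was 0.96 (SE 0.37, adjusted p = 0.17). In that test 0 of 9 genes were called beside 3.05% of all genes, 1 of 9 had an unadjusted p under 0.05 in edgeR, and DESeq2 called 0.

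**Figure D3:**
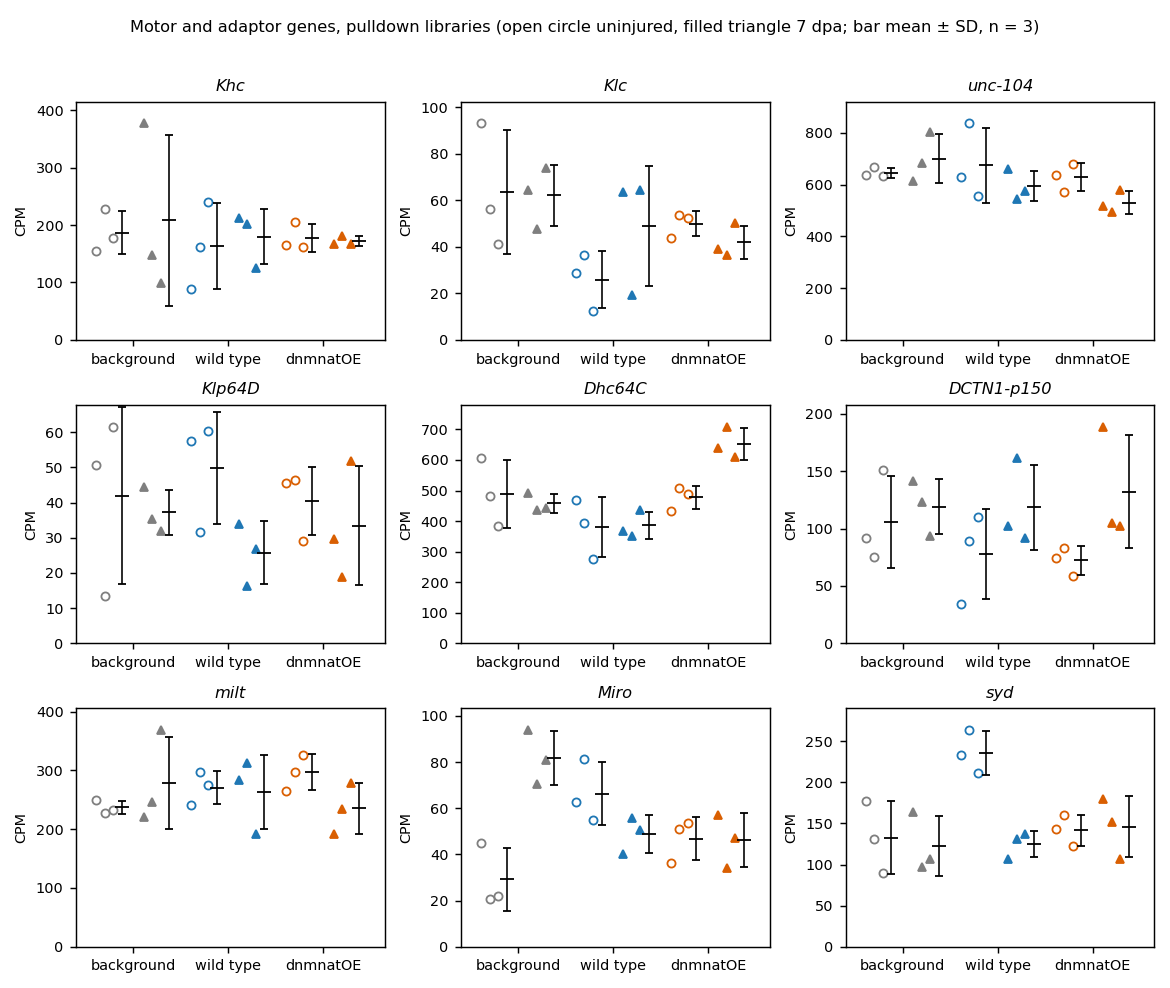
CPM of the 9 genes in each pulldown library, by genotype on the x axis, with open circles for uninjured and filled triangles for 7 dpa; the bar beside each group is the mean ± SD of 3 libraries. Libraries of a group scatter more than in inputs, and Dhc64C at 7 dpa is at 609 to 709 CPM in dnmnatOE against 353 to 437 CPM in wild type.

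Pulldowns with tagged ribosomes were set against the untagged background to see whether any of these transcripts was held above the level of the beads, and none was called. In uninjured wild type it was 0 of 9 genes beside 3.01% of all genes, with 4 of 9 at an unadjusted p under 0.05 in edgeR and 1 called by DESeq2. This gene was syd, at 0.82 in edgeR (SE 0.26, adjusted p = 0.0768) and 0.83 in DESeq2, and it was 1.08 and called by edgeR without background replicate 1. In uninjured dnmnatOE it was 0 of 9 beside 5.55%, with 0 at an unadjusted p under 0.05 in edgeR and 0 called by DESeq2. At 7 dpa it was 0 of 9 beside 3.05% in wild type, with 0 at an unadjusted p under 0.05 in edgeR and 0 by DESeq2. In dnmnatOE at 7 dpa it was 0 of 9 beside 4.69%, with 2 of 9 at an unadjusted p under 0.05 in edgeR and 0 by DESeq2. Intervals of the differences were wide: for Klc in uninjured wild type against background, 95% limits were −2.25 and −0.33, and for Miro 0.31 and 2.00, both before adjustment over genes.

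Dhc64C was the gene of the 9 that differed between dnmnatOE and wild type pulldowns at 7 dpa. It was at 638, 709 and 609 CPM in pulldowns labelled dnmnatOE and at 367, 353 and 437 CPM in wild type, 1.69-fold higher without overlap (log2 0.76, SE 0.16, adjusted p = 0.00216). This was 1 of 9 genes beside 2.61% of all genes. Background pulldowns lay between them at 493, 438 and 444 CPM, and against these dnmnatOE differed by 0.51 (SE 0.16, adjusted p = 0.057) and wild type by −0.25 (SE 0.17, adjusted p = 0.57). The 3 comparisons share their libraries. Inputs went the other way, at 67.9, 74.4 and 66.2 CPM in dnmnatOE and 87.3, 89.6 and 73.2 CPM in wild type (−0.26, SE 0.10, adjusted p = 0.0428), which was not called. Before injury the pulldowns were not called apart, with 434, 509 and 489 CPM in dnmnatOE and 470, 395 and 275 CPM in wild type (0.32, adjusted p = 0.28). In that comparison 0 of 9 genes were called by edgeR beside 6.64% of all genes, 1 of 9 had an unadjusted p under 0.05, and DESeq2 called syd (−0.76). The change of Dhc64C with injury in dnmnatOE minus that in wild type pulldowns was 0.43 (SE 0.23, adjusted p = 0.41) and was not called.

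Exonic length moved with the Dhc64C result. In dnmnatOE against wild type pulldowns at 7 dpa, genes over 8 kb had a median log2 difference of 0.30 and 13.7% of them were called. Genes under 1 kb had a median of −0.36. With an offset that removes the trend over length, Dhc64C differed by 0.35 (adjusted p = 0.45) and was not called, whereas each of the 6 fits that left out 1 library kept the call, at 0.68 to 0.84. The 20 most abundant genes took 28.7% to 32.7% of gene counts in dnmnatOE and 40.5% to 49.3% in wild type pulldowns of 7 dpa. Photoreceptor markers summed to 9294 to 9801 CPM in dnmnatOE and 13885 to 14029 in wild type (1 of 8 called, lower), hemocyte markers to 143 to 184 and 307 to 401 CPM (1 of 4 tested called, lower) and neuron markers to 1948 to 2083 and 1622 to 1767 CPM (1 of 6 called, higher). The part of these shares and markers in the result was not tested.

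Pulldowns held more Dhc64C, syd and milt than inputs. Averaged over the 6 pairs of groups, 3 of 9 genes were called, all higher in pulldowns, beside 57.6% of all genes (17.5% higher and 40.1% lower) and a median of −0.52 over all genes tested. Dhc64C was higher by 2.41 (SE 0.062, adjusted p = 3.69e-36), syd by 1.33 (SE 0.088, adjusted p = 7.04e-19) and milt by 0.83 (SE 0.065, adjusted p = 5.82e-16). The others ran from −0.28 for Klp64D to 0.52 for unc-104, which was −0.53 in the 1 of 43 alternatives that changed its sign. The untagged background showed the Dhc64C difference as well: its log2 ratio of mean CPM, here with all 36 libraries normalized together and not by fraction as above, was 2.04 uninjured and 2.33 at 7 dpa, beside 1.96 and 2.37 in wild type and 2.30 and 3.44 in dnmnatOE. Across the 9 genes the difference went with exonic length (Spearman rho 0.73, Pearson r 0.83 with log2 length), a description over genes that share the same libraries. Over all genes the median ran from −2.27 under 1 kb to 1.42 over 8 kb. With the length offset Dhc64C was 0.65 and syd 0.72, both still called, milt turned to −0.16 and Klc was called at 0.73. Poly-A selection was applied to inputs alone, and fraction and selection cannot be told apart.

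**Figure D4:**
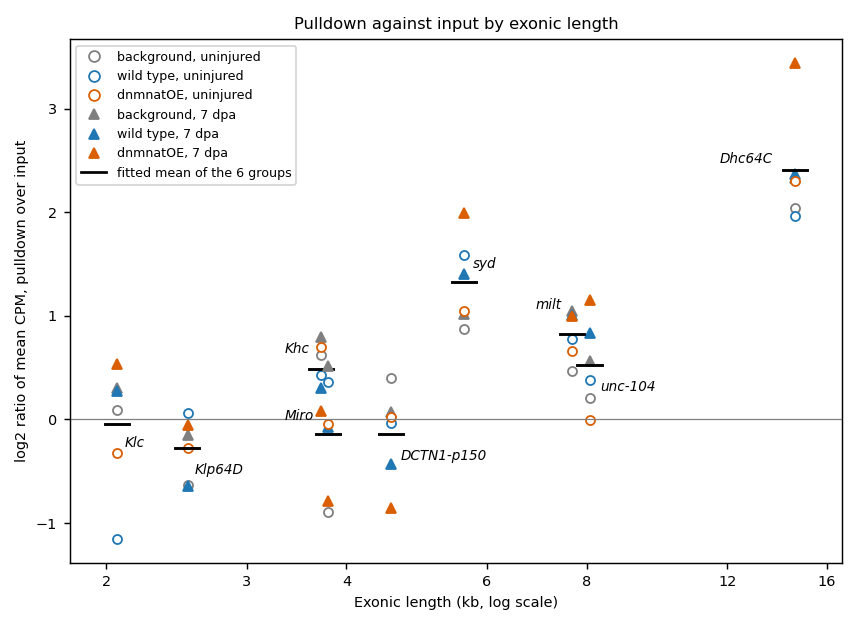
Log2 ratio of mean CPM in pulldowns over inputs on the y axis against exonic length in kilobases on a log scale, for each gene in each of the 6 pairs of groups (open circles uninjured, filled triangles 7 dpa, colour by genotype); the black bar is the fitted mean. Dhc64C, the longest gene at 14.6 kb, lies highest, from 1.96 to 3.44, with the untagged background at 2.04 and 2.33.

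The wider transport machinery gave 51 further genes in 6 lists, of which 49 could be tested in inputs and 40 in pulldowns. In dnmnatOE inputs 22 of 49 were lower and 4 higher after ablation, beside 24.2% lower and 26.5% higher of all genes. In wild type 8 were lower and 0 higher, beside 10.7% lower and 17.8% higher of all genes, and in background 6 lower and 0 higher, beside 5.25% and 9.99%. Other kinesins had 3 of 6 lower in dnmnatOE, Kif3C (−1.16), Klp98A (−1.10) and Khc-73 (−0.73). Klp68D, the partner motor of Klp64D in kinesin-II, was lower in background (−0.64, adjusted p = 0.0048).

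The counts of each list in dnmnatOE inputs stand beside 24.2% lower and 26.5% higher of all genes. In lists this short each call moves the share widely. Other subunits of dynein had 3 of 5 lower in dnmnatOE inputs: the light intermediate chain gene Dlic (−0.77), ctp (−0.72) and Dlc90F (−0.63). Of 8 other dynactin subunits, none was called in background or wild type, beside 15.2% and 28.5% of all genes. In dnmnatOE DCTN4-p62 (0.72) and the capping protein gene cpa (0.74) were higher and DCTN6-p27 (−0.84) was lower. Other adaptors and regulators had 7 of 11 lower in dnmnatOE and none higher, led by Aplip1, a scaffold that binds kinesin light chain (−1.23), Rab3-GEF (−1.12), the dynein regulator Lis-1 (−1.08) and the dynein adaptor gene BicD (−1.02). Of 8 genes of the microtubule tracks 4 were lower, among them tau (−1.79), futsch (−1.70) and stai (−1.39), and 2 were higher, among them the tubulin gene betaTub97EF (1.18). The median in dnmnatOE was −0.61 for kinesins, −0.63 for dynein, −0.15 for dynactin, −0.68 for adaptors and −0.55 for tracks.

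**Figure D5:**
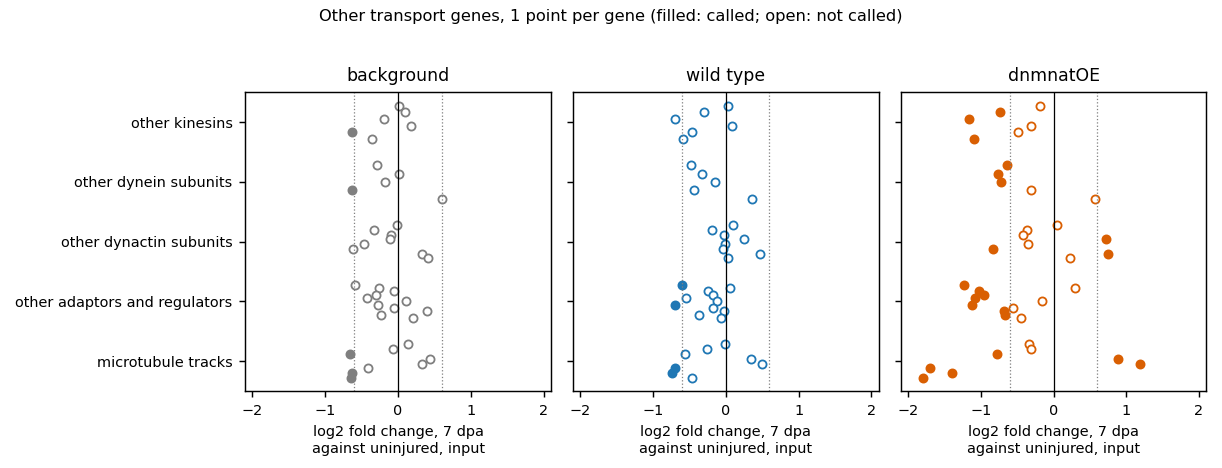
Log2 fold change of 7 dpa against uninjured inputs on the x axis for other kinesins, dynein subunits, dynactin subunits, adaptors and regulators, and microtubule tracks, 1 point per gene, by genotype; filled points were called. In dnmnatOE the called genes of the kinesin, dynein and adaptor lists all lie at negative values.

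Genes of intraflagellar transport, the kinesin-II and dynein-2 traffic of sensory cilia, had few counts in heads. Of 12, 11 were tested, and 1 was lower in background, 4 in wild type and 4 in dnmnatOE, to be read against the shares of all genes given above. The dynein-2 heavy chain gene btv had 56 to 69 counts in uninjured wild type inputs and 0 to 1 at 7 dpa. IFT52 and IFT57 had 3 to 39 counts in uninjured dnmnatOE inputs and 0 in each at 7 dpa.

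In pulldowns, of 40 genes of the wider machinery tested, at most 1 was called in any of the 10 comparisons, in which 2.58% to 11.9% of all genes were called. After ablation betaTub97EF rose in wild type (2.08, SE 0.59, adjusted p = 0.019). At 7 dpa Liprin-alpha, a synaptic scaffold gene, was higher in dnmnatOE than in wild type (1.31, SE 0.34, adjusted p = 0.015) and lower in wild type than in background (−1.28, SE 0.34, adjusted p = 0.018), with the wild type libraries shared by these comparisons. In inputs Liprin-alpha was lower in dnmnatOE than in wild type at 7 dpa (−0.71, SE 0.17, adjusted p = 0.00082).

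The 9 genes did not vary as a unit across libraries. Over the 18 pulldowns the correlation of each gene with the mean of the other 8 in log2 CPM ran from −0.13 for DCTN1-p150 to 0.25 for Miro, and over the 18 inputs from −0.91 for DCTN1-p150 to 0.27 for Dhc64C. The genes outside the set most like their mean were Ada3 (Pearson r 0.79), hig (0.70), Gcn2 (0.67), Nrx-IV (0.67) and Girdin (0.66) among 2781 genes in pulldowns. In inputs they were CG4730 (0.79), alpha-Est9 (0.78), l(1)10Bb (0.76), CG30373 (0.75) and lic (0.75) among 8249 genes. These values describe libraries that share group differences in composition.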

How the data were processed

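Heads of background, wild type and dnmnatOE flies, uninjured or 7 dpa, were sequenced as input and pulldown. The authors trimmed read pairs with Trimmomatic, aligned them with Hisat2 to release 6.43 of the FlyBase genome and deposited raw counts per gene from Htseq-Count. Tool versions and the strand and overlap settings are not given in the sources used here. The deposited counts carry no normalization, and 5 summary rows per file were left out. Samples were grouped by their labels.

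Tests were run in edgeR 4.0.16 under R 4.3.3 (filterByExpr, TMM, robust quasi-likelihood fit, 1 coefficient per group): 18 pulldowns (7213 genes, biological coefficient of variation 0.460), 18 inputs (10437 genes, 0.198) and all 36 libraries (9860 genes, 0.296). The script was tested on simulated data. A call needed an adjusted p no higher than 0.05 together with a log2 fold change larger than 0.6 in size. Alternatives were RLE factors, DESeq2 1.42.0, no filter on low counts, a replicate block, protein-coding genes only, a loess offset for exonic length (span 0.5), voom with a weight per fraction (limma 3.58.1, pulldown against input) and leaving out each library. All 9 genes were named, with at most 4 called genes of each pathway list, those with the largest change. The genes, lists and markers were chosen with earlier results of these data known; the overlapping genes and Nmnat were added after the counts were seen. Symbols and exonic lengths came from Ensembl release 115 (17559 of 17611 genes). Intervals assume a normal error.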

Additional observations from a re-analysis of the deposited data

Results flagged for a closer look

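By the test of the difference itself, the change with injury differed between dnmnatOE and wild type inputs for 3 of the 9 genes. In this test 22.1% of all genes were called. The difference was 0.78 for DCTN1-p150, 0.76 for Miro and −0.74 for unc-104 on the log2 scale. With the length offset unc-104 was −0.44 and not called. Without the offset 5 of 6 neuron markers differed in the same libraries, all lower in dnmnatOE (median of the 6 −0.88). Their part in these values was not tested. Groups of 3 libraries were not searched for libraries that stand apart.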

How the results depend on the processing

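Of 339 values of called genes under the alternatives, 316 kept direction and call, 22 lost the call and 1 turned, milt in pulldown against input with the length offset (−0.16). The number of genes called was within 1.5 times in 239 of 271 cases. With the length offset it became 0 instead of 1 after injury in background pulldowns and in dnmnatOE against wild type pulldowns at 7 dpa, 1 instead of 0 in dnmnatOE pulldowns after injury (Dhc64C, 0.63) and in both uninjured pulldown comparisons of wild type (with dnmnatOE and with background), and 2 instead of 1 in wild type inputs after injury. DESeq2 gave 1 instead of 0 in the same uninjured pulldown comparisons. Protein-coding genes alone and no filter gave 0 in background pulldowns after injury, and no filter gave 1 in wild type against background inputs at 7 dpa. Leaving out 1 library gave 0 to 1 in background and wild type pulldowns after injury, in uninjured wild type against background pulldowns and in wild type against background inputs at 7 dpa, 0 to 2 in background inputs after injury, and 1 to 2 in wild type inputs after injury and in dnmnatOE against wild type inputs at 7 dpa. The length offset moved the median of all genes from −0.52 to 0.08 in pulldown against input. Within a fraction, libraries of equal number did not deviate together (residual correlations −0.037 to 0.031 over 45 pulldown pairs, −0.029 to 0.039 over 45 input pairs). An input was not set against the pulldown of its number in this way. The study's methods keep a part of each lysate as input, and the comparison of pulldown against input was fitted without such pairs. The replicate block gave 0 genes in background pulldowns after injury. Of the genes not called, 64 of 152 values changed sign in some alternative and 8 were called. Pulldown depth limits Klc, Klp64D and Miro most, with as few as 7, 13 and 15 counts.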
